A study of Rattus norvegicus with 14 samples.

Results

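The DNA replication and mitosis genes described here are a list of 44 genes, from the helicase and clamp of the replication fork to the kinases and motors that divide the cell. A gene counted as measured where at least 1 probe set of the array is annotated to its symbol and to no other, and where several were, the one brightest on average across the 14 arrays stood for it. By that rule 40 of the 44 genes were measured, among 14217 genes named on the array. They comprise 12 of 13 replication genes, 27 of 29 mitotic genes and Stmn1, which belongs to neither group. Rrm2, Nek2, Tpx2 and Hmgb2 had no probe set of their own and are described only where a shared probe set exists.

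The arrays hold RNA of the thoracic aorta of Sprague-Dawley rats, with 8 arrays labelled A-CRF (adenine-induced chronic renal failure) and 6 labelled Control. Both groups share strain, tissue and storage in a tissue-preserving solution before freezing. The sources used here give neither the dose and duration of adenine, nor the rats' age and sex, nor what Control rats received. The labels do not say that each array is a separate rat, so the p-values measure the spread between these arrays, which may be technical. The RNA is of aortic tissue and not of sorted cells, so more cells of a type and more RNA per cell cannot be told apart. The values are log2 probe-set summaries, and a change is the A-CRF mean minus the Control mean in log2 units.

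Cells copy their DNA after the MCM helicase, loaded on origins as a ring of 6 related subunits, is activated and PCNA clamps the polymerases to the template. Later, cyclin A and cyclin B bound to CDK1 drive entry into mitosis, the spindle checkpoint holds the anaphase-promoting complex (APC/C) until chromosomes are attached, and a central spindle directs cytokinesis. Smooth muscle cells of the adult aorta divide rarely, and transcripts of many of these genes mark cells in cycle rather than the whole wall. Not all were low in Control: the Control means of Pcna (8.14) and Dut (7.81) lay above those of 91.8% and 89.2% of named genes. Many replication genes are known to carry E2F sites in their promoters, while many genes of late cell cycle carry a cell cycle genes homology region (CHR) and several CCAAT boxes.

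Promoters are shown for the helicase genes with the largest changes and for 4 mitotic genes called higher in A-CRF (adjusted p under 0.05). The gene groups differ in these motifs, and all 4 hold a CHR and 2 or more CCAAT boxes. Stmn1 and Dut were also called higher and are not shown. The Stmn1 promoter has 1 CCAAT box, 1 E2F-type site and no CHR, and that of Dut has 1 CHR and neither other motif. The sequences are the 250 bases before the first listed start of each gene, from RefSeq on build GRCr8, written 5′ to 3′ on the strand of the gene. Ccnb2 lies at chr8:79981659-79981908 on the minus strand, Cdk1 at chr20:19265043-19265292 on the plus strand and Cdkn3 at chr15:22502136-22502385 on the plus strand. Cks2 lies at chr17:13727520-13727769 on the minus strand, Mcm5 at chr19:13488563-13488812 on the plus strand and Mcm6 at chr13:42404353-42404602 on the minus strand. Capitals mark matches on either strand. A CHR was searched with the letters TTTGAA and, as the alternative form, TTTAAA. The CCAAT box was searched by those 5 letters, and an E2F-type site as TTTCCCGC, TTTGGCGC, TTTCGCGC or TTTGCCGC.
Ccnb2: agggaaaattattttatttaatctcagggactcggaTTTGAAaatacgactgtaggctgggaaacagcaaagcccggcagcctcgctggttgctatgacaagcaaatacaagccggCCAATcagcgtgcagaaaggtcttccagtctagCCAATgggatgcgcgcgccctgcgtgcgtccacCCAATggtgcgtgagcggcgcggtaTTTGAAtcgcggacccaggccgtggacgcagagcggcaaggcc
Cdk1: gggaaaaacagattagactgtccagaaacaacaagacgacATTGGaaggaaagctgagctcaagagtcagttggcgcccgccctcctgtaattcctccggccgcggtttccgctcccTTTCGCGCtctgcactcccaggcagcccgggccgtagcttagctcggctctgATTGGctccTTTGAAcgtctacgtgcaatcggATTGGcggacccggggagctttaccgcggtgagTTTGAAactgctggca
Cdkn3: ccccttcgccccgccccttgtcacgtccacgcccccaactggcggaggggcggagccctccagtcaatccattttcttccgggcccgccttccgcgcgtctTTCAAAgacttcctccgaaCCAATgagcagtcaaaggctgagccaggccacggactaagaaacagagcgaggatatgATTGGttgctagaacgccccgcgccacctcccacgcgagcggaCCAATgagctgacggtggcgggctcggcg
Cks2: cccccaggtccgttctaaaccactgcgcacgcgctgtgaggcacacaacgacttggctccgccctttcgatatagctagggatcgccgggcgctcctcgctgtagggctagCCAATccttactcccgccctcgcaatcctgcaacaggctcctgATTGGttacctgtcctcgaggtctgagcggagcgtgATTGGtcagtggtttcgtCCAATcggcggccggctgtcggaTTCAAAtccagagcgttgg
Mcm5: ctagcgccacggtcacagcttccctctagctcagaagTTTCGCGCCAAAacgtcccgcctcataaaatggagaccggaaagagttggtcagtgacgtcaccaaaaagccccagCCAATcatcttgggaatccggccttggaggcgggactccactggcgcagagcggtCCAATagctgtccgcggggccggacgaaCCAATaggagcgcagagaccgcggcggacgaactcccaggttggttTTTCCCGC
Mcm6: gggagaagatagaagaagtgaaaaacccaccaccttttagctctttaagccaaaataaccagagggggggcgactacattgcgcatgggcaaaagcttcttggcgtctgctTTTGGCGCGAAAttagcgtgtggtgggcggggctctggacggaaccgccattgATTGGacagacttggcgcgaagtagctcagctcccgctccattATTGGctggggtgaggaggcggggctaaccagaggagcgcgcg

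In Ccnb2, the CCAAT boxes begin 134, 101 and 68 bases before the start, 33 bases apart, and are followed by a CHR that begins 43 bases before it, with a further CHR 214 bases before it. Cdk1 has 3 CCAAT boxes, of which those that begin 81 and 49 bases before the start are each followed by a CHR, and an E2F-type site 133 bases before it. Cks2 has 4 CCAAT boxes and a CHR that begins 19 bases before the start. In Cdkn3 the order differs: its only CHR begins 149 bases before the start, ahead of CCAAT boxes that begin 130, 72 and 29 bases before it. Mcm5 and Mcm6 have CCAAT boxes too, but no CHR, and each holds a pair of E2F-type sites that overlap on opposite strands and count separately.

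Promoters were found for 35 of the 40 measured members. A CHR stood in 19 of 23 mitotic promoters (82.6%) and in 2 of 11 replication promoters (18.2%), against 17.9% of the 11733 promoters of genes on the array and 25.3% of all 27457 promoters in the table. CCAAT at 2 or more sites stood in 14 of 23 mitotic promoters (60.9%) and 4 of 11 replication promoters (36.4%), against 11.5% and 9.77%. A CHR together with 2 or more CCAAT boxes was found in 13 of 23 mitotic promoters (56.5%) and in 0 of 11 replication promoters, against 1.93% and 2.38%. An E2F-type site stood in 1 of 23 mitotic promoters (4.35%), that of Cdk1, and in 5 of 11 replication promoters (45.5%), those of Mcm2, Mcm5, Mcm6, Mcm7 and Tyms, against 2.94% and 1.81%. A CHR stood in 5 of 6 promoters of called members (83.3%) and in 15 of 19 promoters of mitotic genes not called (78.9%). For a CHR with 2 or more CCAAT boxes these were 4 of 6 (66.7%) and 9 of 19 (47.4%). Across the 35 promoters, 2 hits overlapped a hit of a different motif. These counts describe letters in a window and say nothing of which factor binds.

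Of the 40 measured members, 7 rose in A-CRF at an adjusted p under 0.05 and 0 fell. They were Cdkn3, Stmn1, Cks2, Cdk1, Dut, Ccnb2 and Ccna2, with changes from 0.27 to 0.77, and 3 of them (Cdkn3, Stmn1 and Cks2) passed 1.5-fold. Among all 14217 named genes, 1.93% were called higher and 1.06% lower. The test was limma, with Benjamini-Hochberg adjustment over all 31042 probe sets, of which 2.05% were called in either direction. At an unadjusted p under 0.05, 25 of the 40 members were higher and 0 lower, against 9.74% and 8.88% of named genes. In 9 of the 40 members all 8 A-CRF arrays lay above all 6 Control arrays, against 1.46% of named genes, and 0 lay wholly below, against 0.535%. The change was above 0 in 39 of 40 members, against 48.8% of named genes, and the exception was Pcna. The median change was 0.13 over the members and -0.0012 over all named genes.

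Most members had low Control values on the array's scale, among them the 5 called cyclins and CDK1 partners. The called gene Dut did not, with a Control mean of 7.81. The lowest value on any array was 4.82, and the Control mean lay over 1 log2 unit above it in only 9 of 40 members, 6 of 12 replication genes, 2 of 27 mitotic genes and Stmn1. In that low range, within 1 unit of the lowest value, 1.08% of 6094 named genes were called higher. On such a scale a change near the lowest value can understate the change in transcript number.

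**Figure D1:**
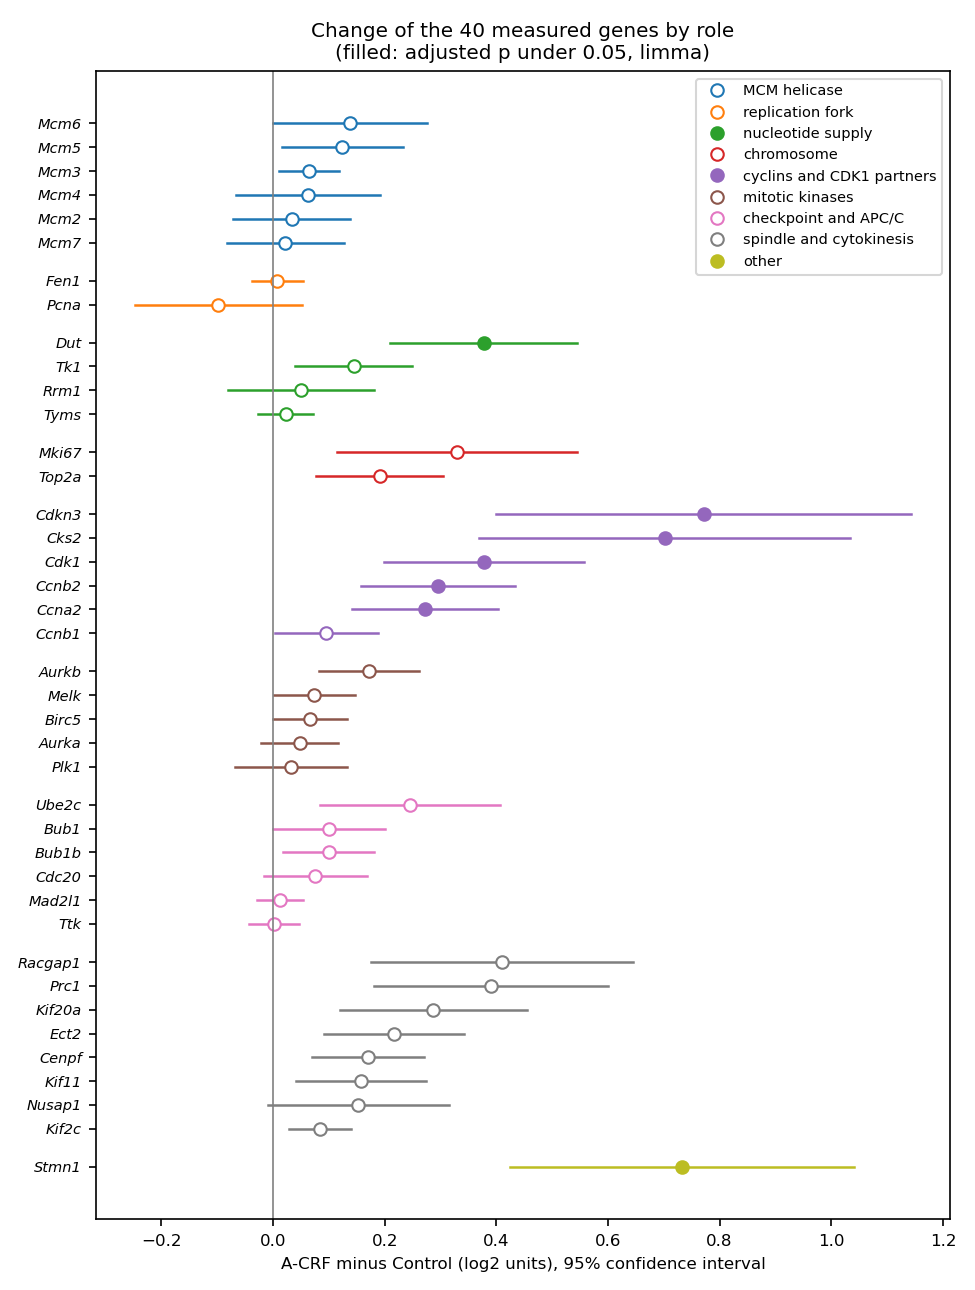
Change of each measured gene in log2 units (A-CRF mean of 8 arrays minus Control mean of 6 arrays), with 95% confidence intervals from limma, ordered by role and by size. The genes called at an adjusted p under 0.05 are marked; 5 of the 7 are cyclins and CDK1 partners, and the point for Pcna alone lies below 0.

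The cyclins and CDK1 partners held 5 of the 7 calls. All 6 of this group were higher at an unadjusted p under 0.05 and 5 of 6 were called, against 9.74% and 1.93% of named genes. Their median change was 0.34. Cdkn3, a phosphatase that removes an activating phosphate from CDKs, ranged from 5.40 to 6.58 in A-CRF (median 5.69) and from 5.02 to 5.10 in Control (median 5.09). No A-CRF array reached down to the Control range. The means were 5.85 ± 0.45 (SD, n = 8) and 5.08 ± 0.03 (SD, n = 6), and the change of 0.77 ± 0.17 (SE) had a limma adjusted p of 0.036. Cks2, a small subunit that binds CDKs, ranged from 5.39 to 6.40 in A-CRF (median 5.79) and from 5.14 to 5.25 in Control (median 5.205). The groups did not overlap, and the change was 0.70 ± 0.15 (SE) with a limma adjusted p of 0.033.

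Cdk1, the kinase of mitotic entry, ranged from 5.28 to 5.85 in A-CRF (median 5.52) and from 5.15 to 5.23 in Control (median 5.19). Its change was 0.38 ± 0.08 (SE), with a limma adjusted p of 0.034, and the groups did not overlap. Ccnb2, encoding cyclin B2, ranged from 5.201 to 5.67 in A-CRF (median 5.40) and from 5.08 to 5.17 in Control (median 5.12). It rose by 0.30 ± 0.06 (SE), with a limma adjusted p of 0.032, again with every A-CRF array above every Control array. Ccna2, encoding cyclin A2, ranged from 5.04 to 5.45 in A-CRF (median 5.18) and from 4.92 to 4.95 in Control (median 4.94). The change was 0.27 ± 0.06 (SE) with a limma adjusted p of 0.036, and the groups did not overlap. Ccnb1, encoding the other main mitotic cyclin, was not called: its 8 A-CRF arrays (5.42 to 5.66, median 5.51) overlapped those of Control (5.36 to 5.49, median 5.46), and its change was 0.10 ± 0.04 (SE) with an adjusted p of 0.32.

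**Figure D2:**
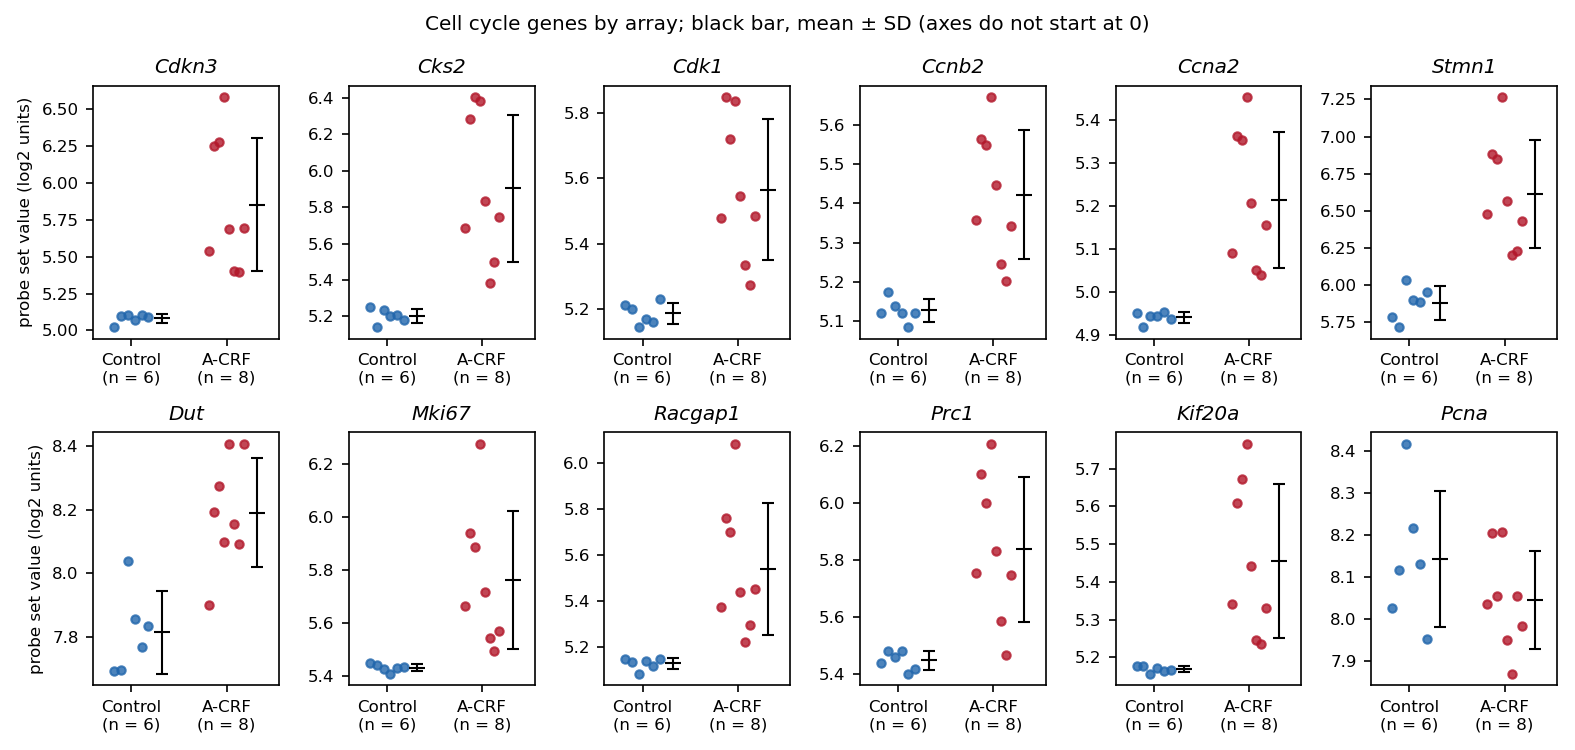
Values of the 7 called genes and of 5 others on every array (log2 units, 1 panel per gene, each with its own vertical axis); each point is 1 array, blue for the 6 Control and red for the 8 A-CRF arrays, and the black bars are the mean ± SD. Cdkn3, Cks2, Cdk1, Ccnb2, Ccna2 and Stmn1 show A-CRF points spread above a narrow Control cluster.

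Stmn1, encoding a protein that destabilises microtubules and is switched off by phosphorylation in mitosis, had the smallest adjusted p of the members. It ranged from 6.20 to 7.26 in A-CRF (median 6.52) and from 5.72 to 6.04 in Control (median 5.90), so the groups did not overlap. The means were 6.61 ± 0.36 (SD, n = 8) and 5.88 ± 0.11 (SD, n = 6), a change of 0.73 ± 0.14 (SE) with a limma adjusted p of 0.020. Whichever of the 14 arrays was left out, Stmn1 was still called, as no other member was, with adjusted p-values up to 0.047.

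None of the 8 spindle and cytokinesis genes was called, although 7 of 8 were higher at an unadjusted p under 0.05, against 9.74% of named genes. Their median change was 0.19. Racgap1, the GTPase-activating subunit of centralspindlin, ranged from 5.22 to 6.08 in A-CRF (median 5.45) and from 5.09 to 5.15 in Control (median 5.14). The groups did not overlap, and the change of 0.41 ± 0.11 (SE) had a limma adjusted p of 0.072. On a second Racgap1 probe set the change was 0.055 ± 0.025 (SE, adjusted p 0.34), with 5 of 8 A-CRF arrays above all Control arrays. Kif20a, a kinesin of the central spindle, ranged from 5.24 to 5.77 in A-CRF (median 5.39) and from 5.16 to 5.18 in Control (median 5.17), also without overlap. Its change was 0.29 ± 0.08 (SE) with an adjusted p of 0.076. Prc1, which bundles antiparallel microtubules of the central spindle, ranged from 5.47 to 6.21 in A-CRF (median 5.79) against 5.40 to 5.48 in Control (median 5.45), with 7 of 8 A-CRF arrays above all Control arrays. The change of Prc1 was 0.39 ± 0.10 (SE) with an adjusted p of 0.057.

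Ect2, the exchange factor that activates RhoA at the division site, had a change of 0.22 ± 0.06 (SE) and an adjusted p of 0.075, with 7 of 8 A-CRF arrays above all Control arrays. Nusap1, a microtubule-binding protein of the spindle, had a change of 0.15 ± 0.08 (SE) and an adjusted p of 0.39, and its groups overlapped. On a second Nusap1 probe set the groups did not overlap, and the change was 0.32 ± 0.08 (SE, adjusted p 0.059). The remaining 3 of the group are Cenpf, a kinetochore protein, and the kinesins Kif11 and Kif2c. Cenpf had a change of 0.17, Kif11 of 0.16 and Kif2c of 0.084, with adjusted p-values of 0.079, 0.16 and 0.12.

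The chromosome proteins Mki67 and Top2a, widely used as markers of proliferating cells, were not called. Mki67, encoding Ki-67, which coats mitotic chromosomes, ranged from 5.49 to 6.27 in A-CRF (median 5.69) and from 5.41 to 5.45 in Control (median 5.43). The groups did not overlap, yet the spread within A-CRF was wide (5.76 ± 0.26, SD, n = 8, against 5.43 ± 0.01, SD, n = 6), and the change of 0.33 ± 0.10 (SE) had a limma adjusted p of 0.11. Top2a, the topoisomerase that untangles sister chromatids, ranged from 5.49 to 5.87 in A-CRF (median 5.61) and from 5.44 to 5.51 in Control (median 5.48). Of its A-CRF arrays, 7 of 8 lay above all Control arrays, and the change was 0.19 ± 0.05 (SE) with an adjusted p of 0.080.

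Among the mitotic kinases and their partners, none of 5 was called and 2 were higher at an unadjusted p under 0.05, against 9.74% of named genes. Aurkb, the kinase of the chromosomal passenger complex, came closest, from 5.26 to 5.57 in A-CRF (median 5.43) and from 5.23 to 5.30 in Control (median 5.26), with 7 of 8 A-CRF arrays above all Control arrays. Its change was 0.17 ± 0.04 (SE) and its limma adjusted p was 0.0503. Birc5 (survivin), a member of the same complex, had a change of 0.066 ± 0.031 (SE) and an adjusted p of 0.35. Plk1, a kinase of mitotic entry and spindle assembly, ranged from 5.47 to 5.78 in A-CRF and from 5.51 to 5.72 in Control, with overlapping groups and a change of 0.032 ± 0.047 (SE, adjusted p 0.86). Aurka, the centrosomal Aurora kinase, and the kinase Melk had changes of 0.048 and 0.074, with adjusted p-values of 0.58 and 0.33.

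The spindle checkpoint and APC/C genes also held 0 calls among 6, with 3 of 6 higher at an unadjusted p under 0.05, against 9.74% of named genes. Ube2c, the ubiquitin-conjugating enzyme of the APC/C, had the largest change of this group. It ranged from 5.40 to 5.97 in A-CRF (median 5.56) and from 5.34 to 5.42 in Control (median 5.41), and 7 of 8 A-CRF arrays lay above all Control arrays. Its change was 0.24 ± 0.08 (SE) with an adjusted p of 0.12. Cdc20, which activates the APC/C, ranged from 6.05 to 6.33 in A-CRF and from 6.03 to 6.20 in Control, and its change of 0.076 ± 0.043 (SE) had an adjusted p of 0.48. Mad2l1, a checkpoint protein that holds Cdc20, had a change of 0.013 ± 0.019 (SE) with a 95% interval from -0.028 to 0.054. Of the checkpoint kinases, Bub1 had a change of 0.10, its relative Bub1b of 0.10 and Ttk of 0.0012, with adjusted p-values of 0.34, 0.21 and 0.99.

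The replication genes held 1 call among 12, and 4 of 12 were higher at an unadjusted p under 0.05, against 9.74% of named genes. The call was Dut, the enzyme that hydrolyses dUTP and so keeps uracil out of DNA. Dut ranged from 7.90 to 8.41 in A-CRF (median 8.17) and from 7.69 to 8.04 in Control (median 7.80), with 7 of 8 A-CRF arrays above all Control arrays. The means were 8.19 ± 0.17 (SD, n = 8) and 7.81 ± 0.13 (SD, n = 6), and the change was 0.38 ± 0.08 (SE) with a limma adjusted p of 0.026. A second Dut probe set had a change of 0.072 and an adjusted p of 0.34. The other enzymes of nucleotide supply were not called. Rrm1, the large subunit of ribonucleotide reductase, overlapped between groups (6.08 to 6.47 in A-CRF, 5.995 to 6.24 in Control) with a change of 0.050 ± 0.061 (SE, adjusted p 0.82). Tk1 (thymidine kinase) and Tyms (thymidylate synthase) had changes of 0.14 and 0.023, with adjusted p-values of 0.16 and 0.77.

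None of the 6 MCM helicase subunits was called, and their changes lay between 0.022 and 0.14. Mcm3 had 7 of 8 and Mcm5 had 6 of 8 A-CRF arrays above all Control arrays, and these were the only subunits with an unadjusted p under 0.05. Mcm3 ranged from 5.47 to 5.65 in A-CRF (median 5.504) and from 5.42 to 5.48 in Control (median 5.46), with a change of 0.064 ± 0.025 (SE, adjusted p 0.22). Mcm5 ranged from 5.58 to 5.995 in A-CRF (median 5.74) and from 5.54 to 5.67 in Control (median 5.64), with a change of 0.12 ± 0.05 (SE, adjusted p 0.25). Mcm6 had the largest change of the ring, 0.14 ± 0.06 (SE, adjusted p 0.35). Mcm4 ranged from 6.07 to 6.49 in A-CRF and from 6.06 to 6.35 in Control, a change of 0.063 ± 0.060 (SE, adjusted p 0.75).

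Mcm2 and Mcm7 differed least. The change of Mcm2 was 0.034 ± 0.049 (SE, adjusted p 0.87), with a 95% interval from -0.071 to 0.14. The change of Mcm7 was 0.022 ± 0.049 (SE, adjusted p 0.92), with a 95% interval from -0.082 to 0.13. Array A-CRF 4 was the highest A-CRF array for both, and without it their changes were -0.00501 and -0.00455. Without Control 2, the change of Mcm7 was -0.00647.

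At the fork, Pcna, the sliding clamp, was the only member with a mean below Control. It ranged from 7.87 to 8.21 in A-CRF (median 8.05) and from 7.95 to 8.42 in Control (median 8.12), with overlapping groups. The change was -0.10 ± 0.07 (SE) with an adjusted p of 0.61 and a 95% interval from -0.25 to 0.052. Fen1, the nuclease that trims the flaps of lagging-strand fragments, had a change of 0.0077 ± 0.021 (SE, adjusted p 0.95).

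Set side by side, the mitotic genes had a larger median change than the replication genes, but not in every role. The role medians were 0.34 for cyclins and CDK1 partners, 0.26 for chromosome proteins and 0.19 for spindle and cytokinesis. They were only 0.088 for checkpoint and APC/C genes and 0.066 for mitotic kinases. Among replication genes they were 0.097 for nucleotide supply, 0.064 for the helicase and -0.045 for the fork. The median change was 0.17 over the 27 mitotic genes and 0.057 over the 12 replication genes, a difference of 0.11, which was not tested because the members were chosen with results of these data known. At an unadjusted p under 0.05, 20 of 27 mitotic genes and 4 of 12 replication genes were higher, against 9.74% of named genes. All A-CRF arrays lay above all Control arrays in 8 of 27 mitotic and 0 of 12 replication genes, against 1.46% of named genes. The listed replication gene Rrm2 is not among the 12. A probe set that it shares with its copy Rrm2l1 had a change of 0.82, with all 8 A-CRF arrays above all Control arrays (limma adjusted p 0.053). A second shared probe set had a change of 0.11. The order of the mitotic and replication medians held in each of the 28 other fits, with differences between 0.00017 and 0.15. The smallest came with the macrophage score as a covariate, where both medians were -0.062.

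**Figure D3:**
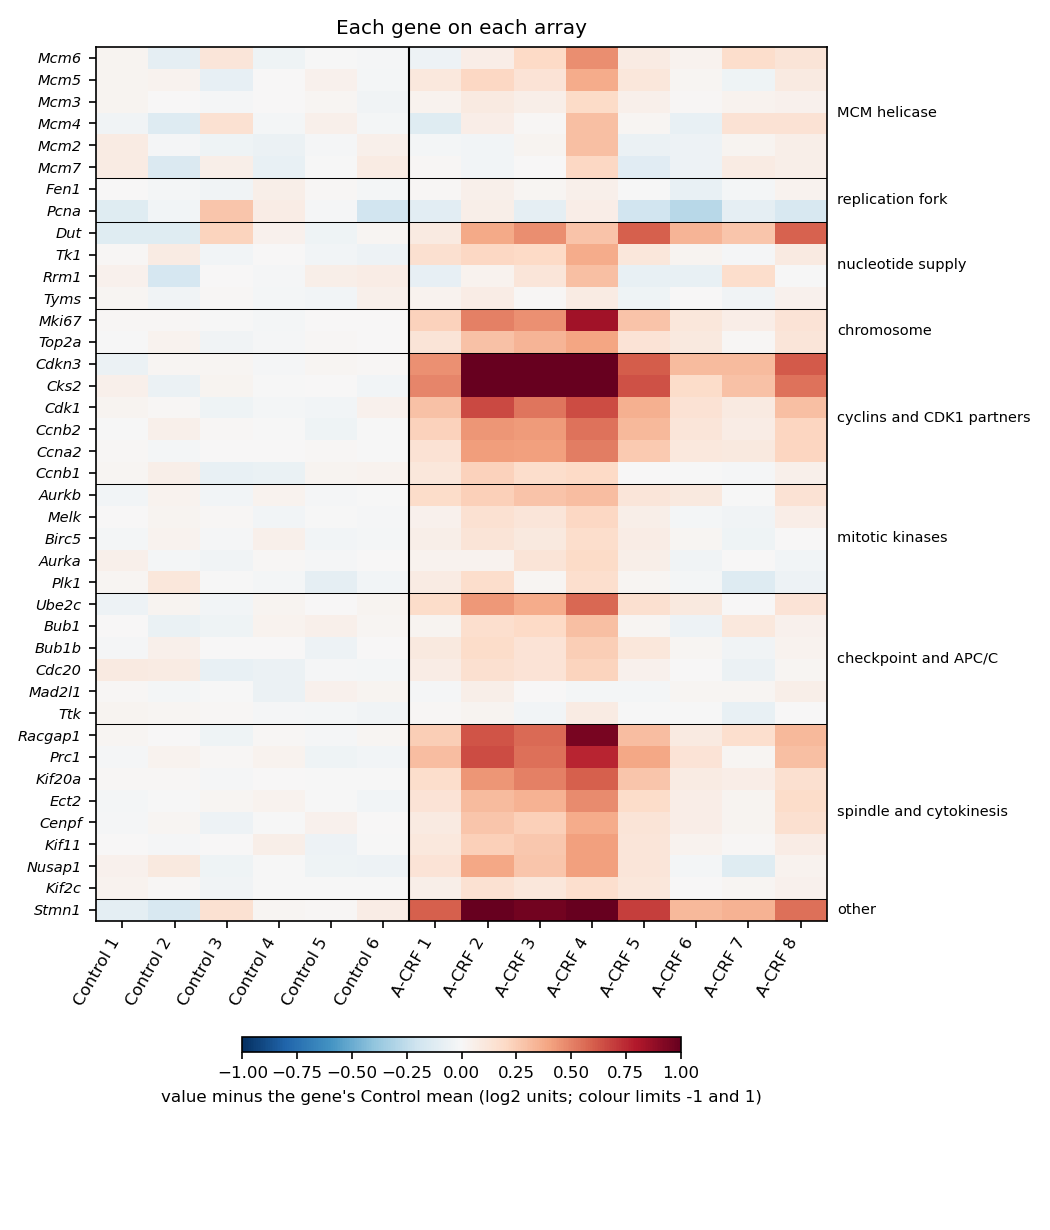
Each of the 40 measured genes (vertical, grouped by role) on each of the 14 arrays (horizontal), coloured by its value minus the gene's Control mean in log2 units, with colours saturating beyond -1 and 1. Arrays A-CRF 2, A-CRF 3 and A-CRF 4 are the darkest columns among mitotic genes, while A-CRF 6 and A-CRF 7 are pale.

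The A-CRF arrays were far from alike. The mean over the 27 mitotic genes was 5.47, 5.67, 5.65, 5.77, 5.49, 5.37, 5.35 and 5.46 on arrays A-CRF 1 to A-CRF 8, and lay between 5.30 and 5.33 on the 6 Control arrays. All 8 A-CRF arrays were thus above the highest Control array, from 0.034 (A-CRF 7) to 0.46 (A-CRF 4) above the Control mean. The mean over the 12 replication genes lay between 6.14 and 6.41 in A-CRF and between 6.10 and 6.21 in Control, with 5 of 8 A-CRF arrays above all Control arrays. A-CRF 4 was the highest there too, 0.25 above the Control mean, and A-CRF 6 was the lowest, at -0.013.

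The same arrays led across genes. A-CRF 4 was the highest A-CRF array for 34 of 40 members and A-CRF 7 the lowest for 23. A-CRF 2, A-CRF 3 and A-CRF 4 were the 3 highest A-CRF arrays for 22 of 27 mitotic genes and for 4 of 12 replication genes. A-CRF 6 and A-CRF 7 were the 2 lowest for 21 of 27 mitotic genes and for 3 of 12 replication genes. The spread followed: the median SD of mitotic genes was 0.13 in A-CRF and 0.032 in Control, and the A-CRF SD was the larger in 26 of 27 genes. For replication genes the medians were 0.12 and 0.063, with A-CRF larger in 11 of 12, against 0.073 and 0.063 with A-CRF larger in 59.8% of all named genes.

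**Figure D4:**
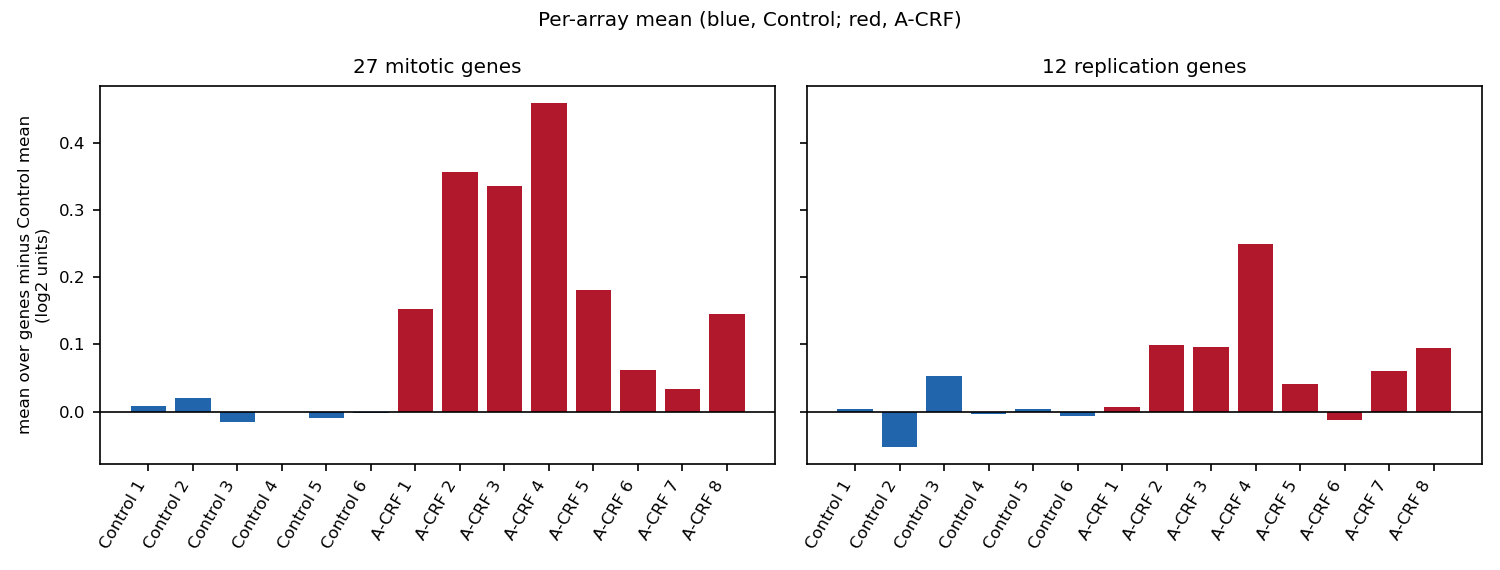
Mean over the 27 mitotic genes (left) and the 12 replication genes (right) on each array, as the difference from the Control mean in log2 units; bars start at 0. Every A-CRF bar is above every Control bar on the left, from 0.034 to 0.46, while on the right A-CRF 4 stands out at 0.25 and A-CRF 1, A-CRF 5 and A-CRF 6 lie within the range of the Control bars.

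Markers of macrophages moved with the same groups. All 16 macrophage markers listed were measured, and all 16 were over 1 log2 unit above the lowest array value in Control. Of the 16, 11 were called higher in A-CRF and 0 lower, against 1.93% and 1.06% of named genes. Their mean lay between 7.18 and 7.63 in A-CRF and between 6.79 and 6.98 in Control. The arrays that led the mitotic genes, A-CRF 2, A-CRF 3 and A-CRF 4, were also the 3 highest for macrophage markers, at 7.47, 7.63 and 7.58. A-CRF 7 was next at 7.33, although its mitotic mean was the lowest of the A-CRF arrays. With the macrophage score as a covariate, 0 of 40 members were called by limma, 1 was higher and 3 lower at an unadjusted p under 0.05, and 0 of 31042 probe sets were called (1351 at an unadjusted p under 0.05). Because A-CRF and Control do not overlap in that score, macrophage content and group cannot be told apart here.

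Other cell types were read from their own marker lists. By limma, 0 of 8 T cell markers and 0 of 3 B cell markers were called, and 0 of either were past an unadjusted p of 0.05. Of 8 smooth muscle markers, 2 were called lower and 0 higher. None of 7 fibroblast markers was called by limma (2 higher and 0 lower at an unadjusted p under 0.05), and their mean lay between 9.94 and 10.24 in A-CRF and between 9.71 and 9.97 in Control, with 6 of 8 A-CRF arrays above all Control arrays. None of 7 endothelial markers was called (1 higher and 0 lower at an unadjusted p under 0.05), with means of 6.501 to 6.73 in A-CRF and 6.45 to 6.698 in Control. None of 5 red blood cell markers was called (0 higher and 2 lower at an unadjusted p under 0.05), with means of 5.79 to 6.15 in A-CRF and 6.01 to 6.19 in Control.

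Fat and clock genes divided the A-CRF arrays. Fat markers were lowest on A-CRF 4, A-CRF 2 and A-CRF 5, with means of 6.86, 7.04 and 7.27 against 7.74 to 8.57 in Control, and 0 of 9 were called (1 lower and 0 higher at an unadjusted p under 0.05). With the fat score as a covariate 0 members were called, 19 were higher and 1 lower at an unadjusted p under 0.05, and the mitotic median was 0.12. A score of clock genes put A-CRF 6, A-CRF 7 and A-CRF 8 (0.85, 1.04 and 1.65) apart from the other A-CRF arrays (-2.67 to -1.26), with Control from -0.60 to 2.003. A-CRF 6, A-CRF 7 and A-CRF 8 also had the lowest mitotic means of the A-CRF arrays (5.37, 5.35 and 5.46), with A-CRF 1 next at 5.47. With the clock score as a covariate 0 members were called, 14 were higher at an unadjusted p under 0.05, and the mitotic median was 0.13. The part of these cell types and scores in the members' changes was not tested beyond these fits.

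**Figure D5:**
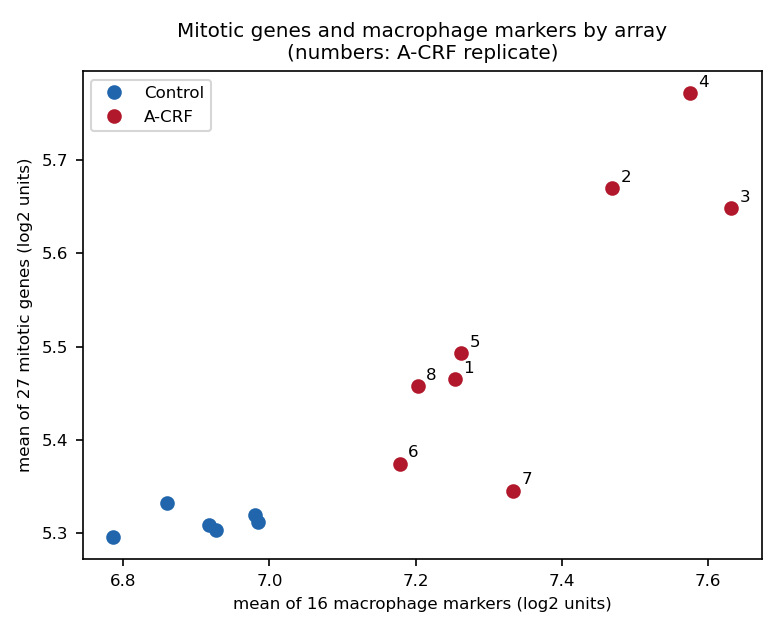
Mean over the 27 mitotic genes (vertical, log2 units) against the mean over 16 macrophage markers (horizontal, log2 units), 1 point per array, blue for Control and red for A-CRF, the latter with their array numbers. The Control arrays sit together at 5.30 to 5.33, and the A-CRF arrays lie to the right of them and higher, with A-CRF 7 low at a macrophage mean of 7.33.

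The probes for both ends of the Gapdh transcript differed by 1.90, 1.63 and 1.58 log2 units (3′ minus 5′) on A-CRF 1, A-CRF 4 and Control 1, and by 0.37 to 0.55 on the other arrays. No difference between the group means was detected (exact permutation test over 3003 splits, two-sided, p = 0.88). A-CRF 4 is thus the highest array for most members and 1 of these 3, while the mitotic mean of Control 1 (5.32) lay within the range of the other Control arrays. Without these 3 arrays 4 members were called, namely Dut, Ccna2, Cdkn3 and Stmn1, and the medians were 0.14 for mitotic and 0.043 for replication genes. In that fit 21 members were higher and 0 lower at an unadjusted p under 0.05, and 5025 of 31042 probe sets passed in either direction.

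The number of members called turned on single arrays, as did calls over all 31042 probe sets. The latter ranged from 307 to 979 with 1 array left out, against 636 with every array. The count of members was 1 without Control 1, Control 2, Control 4, Control 5 or Control 6, and 2 without Control 3. It was 3 without A-CRF 2, 2 without A-CRF 3, 2 without A-CRF 5 and 13 without A-CRF 7. Dropping A-CRF 1 left the count at 7, and dropping A-CRF 8 gave 5. The count was 8 once A-CRF 4, the highest array for most members, was removed, and 9 once A-CRF 6 was. Across all 14 such fits, 22 to 28 members were higher and 0 lower at an unadjusted p under 0.05, and the mitotic median stayed between 0.14 and 0.19.

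Further cell cycle genes were listed by function, with earlier results of these data known, and were read the same way. Of 53 measured mitotic genes outside the 40, 1 was called higher and 0 lower, against 1.93% and 1.06% of named genes, a share near the background. At an unadjusted p under 0.05, 26 were higher and 1 lower, against 9.74% and 8.88%, with a median change of 0.068. The call was Kif20b, a kinesin of cytokinesis, at 5.14 ± 0.10 (SD, n = 8) against 4.97 ± 0.02 (SD, n = 6), a change of 0.17 ± 0.04 (SE, limma adjusted p 0.049) with no overlap. It was called in only 4 of the 14 fits without 1 array. The list's count was 0 when any Control array was dropped and when A-CRF 2, A-CRF 3, A-CRF 5 and A-CRF 8 were dropped in turn, 2 without A-CRF 4 and 4 without A-CRF 7, with 22 to 30 higher at an unadjusted p under 0.05. Of 34 further replication genes, 1 was called higher and 0 lower, 3 were higher and 0 lower at an unadjusted p under 0.05, against 1.93% called higher and 9.74% higher before adjustment among named genes, and the median change was 0.0058. The call was Pola2, a subunit of DNA polymerase alpha, which rose by 0.16 ± 0.03 (SE, limma adjusted p 0.014) with no overlap between groups and was called whichever array was left out. The medians of these lists stood in the same order as those of the members, and this order was not tested.

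Of 37 measured regulators, mostly of the G1 phase, 5 rose and 0 fell, against 1.93% and 1.06% of named genes. At an unadjusted p under 0.05, 7 were higher and 3 lower, against 9.74% and 8.88%. With 1 array dropped, the count of 5 became 3 (A-CRF 6, Control 3), 2 (Control 4, A-CRF 2, A-CRF 3, A-CRF 8) or 1 (A-CRF 5, Control 2, Control 5, Control 6), and it was 4 or 5 for the others. Cdkn1a, encoding the CDK inhibitor p21, was 7.58 ± 0.53 (SD, n = 8) in A-CRF and 6.58 ± 0.16 (SD, n = 6) in Control, a change of 0.999 ± 0.21 (SE, limma adjusted p 0.027) with no overlap. Ccnd1, encoding cyclin D1, was 7.77 ± 0.31 (SD, n = 8) and 6.94 ± 0.26 (SD, n = 6), a change of 0.82 ± 0.15 (SE, limma adjusted p 0.014), with 7 of 8 A-CRF arrays above all Control arrays. The other calls were Ccng1 (cyclin G1, 0.31), Tfdp1 (a partner of E2F factors, 0.21) and Rbl1 (the pocket protein p107, 0.14). The 3 regulators lower at an unadjusted p under 0.05, named after their values were seen, were not called. Wee1, a kinase that inhibits CDK1, had a change of -0.59 ± 0.18 (SE, adjusted p 0.104). The CDK inhibitors Cdkn1c (p57) and Cdkn1b (p27) had changes of -0.44 ± 0.16 (SE, adjusted p 0.204) and -0.33 ± 0.14 (SE, adjusted p 0.28). Transcripts of 4 transcription factors that act on these genes were not called: E2f1 had a change of 0.07, Foxm1 of 0.07, Mybl2 of 0.02 and Myc of 0.18.

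The 40 members had 56 probe sets, and 11 members had more than 1. Of the 16 further probe sets, 0 were called by limma, 8 were past an unadjusted p of 0.05, and 2 had the opposite sign to the one that stood for the gene, 1 of Cdc20 (-0.016) and 1 of Tk1 (-0.013). Further probe sets of Ccnb1 (0.11), Top2a (0.10) and Ttk (0.078) had adjusted p-values of 0.21, 0.23 and 0.22, while those of Kif11 and Kif2c had changes of 0.0056 and 0.020. The remaining Cdc20 probe sets had changes of 0.13, 0.031 and 0.012 (limma adjusted p 0.27, 0.68 and 0.89). Those of Mad2l1 had changes of 0.066 and 0.030 (limma adjusted p 0.27 and 0.69). A probe set annotated to both Rrm2, the small subunit of ribonucleotide reductase, and its copy Rrm2l1 was 6.22 ± 0.52 (SD, n = 8) in A-CRF and 5.40 ± 0.08 (SD, n = 6) in Control. All 8 A-CRF arrays were above all Control arrays, and its change of 0.82 ± 0.20 (SE) had a limma adjusted p of 0.053. A second probe set of the same pair had a change of 0.11 (adjusted p 0.18), and 1 shared by Hmgb2 and its copies, a chromatin protein, had a change of 0.18 (adjusted p 0.49). Which of the copies these probes measured is not given by the annotation.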

How the data were processed

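RNA of rat thoracic aorta was measured on 14 one-colour arrays, 8 A-CRF and 6 Control, numbered here in the order of deposit. The deposited values are log2 probe-set summaries made by the authors with PLIER, per the submitters' processing notes; their span, 4.82 to 12.6, is the basis for the log base, and the sources used here give no version, offset or normalization for PLIER. No depth applies to arrays, so precision is limited by their number. Of 31099 probe sets, 57 controls were left out; 20826 of the 31042 tested carry 1 gene symbol, 436 several and 9780 none in the platform annotation.

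The groups were compared in limma 3.58.1 (lmFit and eBayes, R 4.3.3), with group as the only factor, with Benjamini-Hochberg adjustment over all 31042 probe sets and a threshold of 0.05. The procedure was tested on simulated data. The members and gene lists were chosen with earlier results of these data known. Named genes were all called members, the 15 largest changes, the 2 highest Control means per role, always Mki67, Top2a, Pcna, Cdk1, Ccnb1 and Mcm2 to Mcm7, and, from the other cell cycle lists, called genes (up to 6 per list) with Ccnd1, Cdkn1a, E2f1, Foxm1, Mybl2 and Myc; remaining members are given briefly. Alternatives changed the offset (16), normalization, filter (40th percentile), variance model, array weights, test, probe-set rule, covariates and arrays used. Motifs were counted on both strands in the 250 bases before each start, from RefSeq (GRCr8).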

Additional observations from a re-analysis of the deposited data

Results flagged for a closer look

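The 30 members chosen for naming were examined by Dixon's test, with Ccnd1, Cdkn1a, E2f1, Foxm1, Mybl2 and Myc. Also examined were the array means of mitotic genes, replication genes, cyclins and CDK1 partners, and macrophage markers. For each, the groups of 6 and 8 arrays were searched for an array that stood far from the rest. Of 80 such groups 6 were marked, while chance marks about 1 in 20. Array A-CRF 4 was the highest, apart from the other A-CRF arrays, for Mcm2 (6.03, next 5.79), Mcm3 (5.65, next 5.55), E2f1 (6.33, next 6.09) and the mean over the 12 replication genes (6.41, next 6.25). Control 2 was apart as the lowest Control array for Rrm1 (5.9955, next 6.15) and as the highest for Foxm1 (5.36, next 5.30). The probe set annotated to both Rrm2l1 and Rrm2, which stands outside the measured members, had an A-CRF mean of 6.22 against 5.40 in Control.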

How the results depend on the processing

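Against 7 members called higher, limma with array weights called 14, the Gapdh-filtered arrays 4, and fits with the fat, clock or macrophage score as a covariate 0 each (19, 14 and 1 higher at an unadjusted p under 0.05); leaving out 1 array gave 1 to 13. Against 636 probe sets called, the values were 1457 (array weights), 267 (fat), 66 (clock), 1041 (Gapdh difference) and 0 (macrophage, with 1351 at an unadjusted p under 0.05), and 307 to 979 when 1 array was left out. The exact rank-sum test called 9 members; its smallest possible p of 0.000666 becomes 0.0482 after adjustment. Members called lower stayed at 0 in every fit run. The mitotic median of 0.17 ranged from 0.14 to 0.19 without 1 array, the replication median of 0.057 from 0.022 to 0.070, and their difference from 0.098 to 0.15. With the macrophage score these were -0.062, -0.062 and 0.00017.

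With array weights the changes that reversed sign were Fen1 (-0.013) and Rrm1 (-0.00826); with the fat score Fen1 (-0.00996), Plk1 (-0.00400), Ttk (-0.015) and Mybl2 (-0.000708); with the clock score Fen1 (-0.00354), Plk1 (-0.020), Ttk (-0.011) and Mybl2 (-0.011); with the Gapdh difference Ttk (-0.00156); and without the arrays of high Gapdh difference Fen1 (-0.000450) and Ttk (-0.00716). Without 1 array, Mcm2 ranged from -0.00501 (A-CRF 4) to 0.050 (Control 1) and Mcm7 from -0.00647 (Control 2; -0.00455 without A-CRF 4) to 0.041 (A-CRF 5), and Ttk from -0.00993 (A-CRF 4) to 0.011 (A-CRF 7). With the macrophage score 10 of 12 replication genes reversed, namely Fen1 (-0.062), Mcm2 (-0.11), Mcm3 (-0.027), Mcm4 (-0.040), Mcm5 (-0.062), Mcm6 (-0.075), Mcm7 (-0.065), Rrm1 (-0.20), Tyms (-0.014) and Tk1 (-0.041). So did 23 of 27 mitotic genes, namely Mki67 (-0.13), Top2a (-0.063), Ccna2 (-0.023), Ccnb1 (-0.075), Cdkn3 (-0.084), Cks2 (-0.088), Aurka (-0.11), Birc5 (-0.045), Plk1 (-0.062), Melk (-0.048), Bub1 (-0.15), Bub1b (-0.031), Ttk (-0.020), Cdc20 (-0.087), Ube2c (-0.099), Cenpf (-0.035), Kif11 (-0.11), Kif2c (-0.022), Kif20a (-0.11), Nusap1 (-0.16), Prc1 (-0.017), Racgap1 (-0.12) and Ect2 (-0.051). Among the other cell cycle genes named, Kif20b (-0.00603), E2f1 (-0.029), Foxm1 (-0.058), Mybl2 (-0.033), Myc (-0.28), Wee1 (0.072) and Cdkn1b (0.17) reversed. The cause was not tested.

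No paired analysis was possible because the labels give the 2 groups no shared replicate numbers. In Control, all but 2 of the 27 mitotic genes lay within 1 log2 unit of the arrays' lowest value.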
